A study of Mus musculus with 8 samples.

Results

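Peroxisomes are small organelles that shorten very long, branched and otherwise poorly handled fatty acids, make the hydrogen peroxide that catalase then removes, and finish bile acid side chains. In rodent liver many of their oxidation enzymes are induced by PPAR-alpha, a nuclear receptor that fatty acids activate during fasting, whereas the peroxins, proteins that build the organelle and import its enzymes, are in the main constitutively expressed. PPAR-alpha binds as a dimer with a retinoid X receptor to a direct repeat of a short hexamer with 1 base between its copies (DR1). The 35 genes described here (Ppara with its partner factor and hormone target, transporters, oxidation enzymes, other PPAR-alpha targets and peroxins) were taken by symbol from a table of 35638 genes, and each symbol matched exactly 1 row. They comprise 10 oxidation and uptake genes known to be inducible (Abcd2, Abcd3, Ehhadh, Acaa1a, Acaa1b, Hsd17b4, Crot, Acot8, Decr2 and Pecr), 10 peroxins of organelle assembly (Pex2, Pex3, Pex5, Pex6, Pex7, Pex10, Pex13, Pex14, Pex16 and Pex19) and 15 others.

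RNA from frozen liver was sequenced in 8 samples of mice at postnatal day 90, on a mix of the C57/B6 and 129 strains. The 4 WT samples had the genotype Arid1a Fl/Fl, in which both alleles carry loxP sites, and the 4 KO samples had Arid1a Fl/Fl together with Alb-cre, so the floxed alleles were common to both groups and Cre was in KO alone. Alb-cre expresses Cre recombinase from the albumin promoter in hepatocytes, so that other liver cells keep the gene. Arid1a encodes a DNA-binding subunit of SWI/SNF, a complex that remodels chromatin, and the comparison asks what its loss from hepatocytes does to liver expression, here of the fatty acid oxidation machinery. The labels name neither sex nor feeding state nor time of day, and they do not state that the 4 samples of a group are 4 animals, so each p-value is set against the spread among these libraries, which may be technical only.

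The values are FPKM, fragment counts divided by gene length and sequencing depth, which can be compared between genes for that reason. Depth, estimated from the steps of low values, was about 12400000 to 15200000 reads a library. Arid1a (ENSMUSG00000007880, chromosome 4, 133679008 to 133756769) was the check of the labels, at 5.16, 8.38, 3.998 and 4.105 FPKM in the WT libraries and 2.6999, 2.86, 3.46 and 2.59 FPKM in the KO libraries. It averaged 5.41 ± 2.05 FPKM in WT against 2.901 ± 0.386 FPKM in KO (mean ± SD, n = 4 each), and each KO library lay below each WT library, although it missed the threshold over all genes (log2 change -0.67, limma adjusted p = 0.316). These values cover the whole gene and not the floxed part alone. The 10 hepatocyte markers summed to 30391 to 41331 FPKM in WT and 33486 to 48714 FPKM in KO. Marker sums of macrophages, endothelium and stellate cells lay higher in each KO library than in any WT library, with 0 single markers past the threshold (limma). The 10 macrophage markers summed to 6.58 to 13.5 FPKM in WT and 19.4 to 143 FPKM in KO. Their change was positive in 10 of 10, beside 5129 of the 11266 genes tested. In 8 of them every KO library lay above every WT library, beside 3.05% of all genes tested. The 8 endothelial markers summed to 2.204 to 7.73 and 13.6 to 25.6 FPKM, the 8 stellate cell markers to 2.58 to 7.13 and 11.2 to 27.2 FPKM, with a positive change in all 6 and all 3 that were tested, and the 5 cholangiocyte markers to 0.269 to 0.792 and 0.527 to 6.82 FPKM. Krt19 and Epcam, defining markers of cholangiocytes, were at 0 in all WT libraries and reached at most 0.109 and 0.0724 FPKM in KO. Spp1 made up most of the cholangiocyte sum in each KO library (0.512 to 6.72 FPKM, against 0 to 0.658 FPKM in WT). Sox9 went the other way, at 0.134 to 0.462 FPKM in WT and 0.0157 to 0.123 FPKM in KO. Its levels were under the minimum for testing. The 6 fat and muscle markers summed to 0.428 to 0.595 and 0.375 to 0.594 FPKM, with Lep and Cidea at 0 in all 8 libraries. The part of these cells in the results below was not tested. In whole tissue, a change in the number of cells of a type and a change in RNA per cell cannot be told apart.

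Of the 35 genes 1 carried a DR1 element close to its start in the windows searched, and its upstream sequence is shown because PPAR-alpha binds elements of this class. RefSeq windows of GRCm38.p6, reaching from 250 bases before to 50 bases after the start, were at hand for 29 of the 35 genes (34 windows). The strict DR1, AGGTCA repeated with any 1 base between the copies and searched on both strands, occurred in 0 of these 34 windows and in 0.0396% of the 32851 windows of all genes. The relaxed form, AGGNCA repeated in the same way, which includes the strict one, occurred in 1 of the 34 windows and in 0.381% of all. The match lay at bases 71199812 to 71199824 of chromosome 6, upstream of Fabp1, the gene of liver fatty acid binding protein, on the strand opposite to the gene and beginning 67 bases before the RefSeq start. The stretch chr6:71199629-71199826 (plus strand, GRCm38) ends before the earliest annotated start of Fabp1, and capitals mark the match.
Fabp1 upstream: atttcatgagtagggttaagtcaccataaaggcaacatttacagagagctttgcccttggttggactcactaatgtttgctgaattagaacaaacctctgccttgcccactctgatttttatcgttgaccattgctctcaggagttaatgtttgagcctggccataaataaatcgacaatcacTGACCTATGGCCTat
A match is a match of letters, and a window without one says only that these letters are not in it.

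No gene of the 35 passed the test between KO and WT. With genes under a mean of 1 FPKM left out, 34 members were tested and 0 passed a Benjamini-Hochberg adjusted p of 0.05 (limma on log2(FPKM + 1), fitted over 11266 genes), while 0.763% of all genes tested passed (0.408% higher and 0.355% lower in KO). At an unadjusted p under 0.05 there was 1 member, Aldh3a2, against 9.81% of all genes. In 0 of the 34 did every KO library lie below every WT library, and in 0 did every KO library lie above, against 3.18% and 3.05% of all genes. The change was negative in 25 of 34 (73.5%) with a median of -0.22 on the log2 scale, beside 54.5% of all genes and a median of -0.03. Without WT 4, the library that held most of the highest values, the negative changes were 18 of 33. The median was then -0.05, beside 0.02 over all genes. Leaving out KO 3 gave a median of -0.07. With any other single library left out the median lay between -0.27 (without KO 2) and -0.18 (without KO 1). Without WT 4 and KO 2 together, an alternative added after seeing the data, it was -0.11, with 20 of 33 negative. The 95% intervals of single genes were wide enough to leave room for sizeable changes, reaching from -2.18 to 0.54 for Crot and from -0.20 to 0.61 for Pex7.

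**Figure D1:**
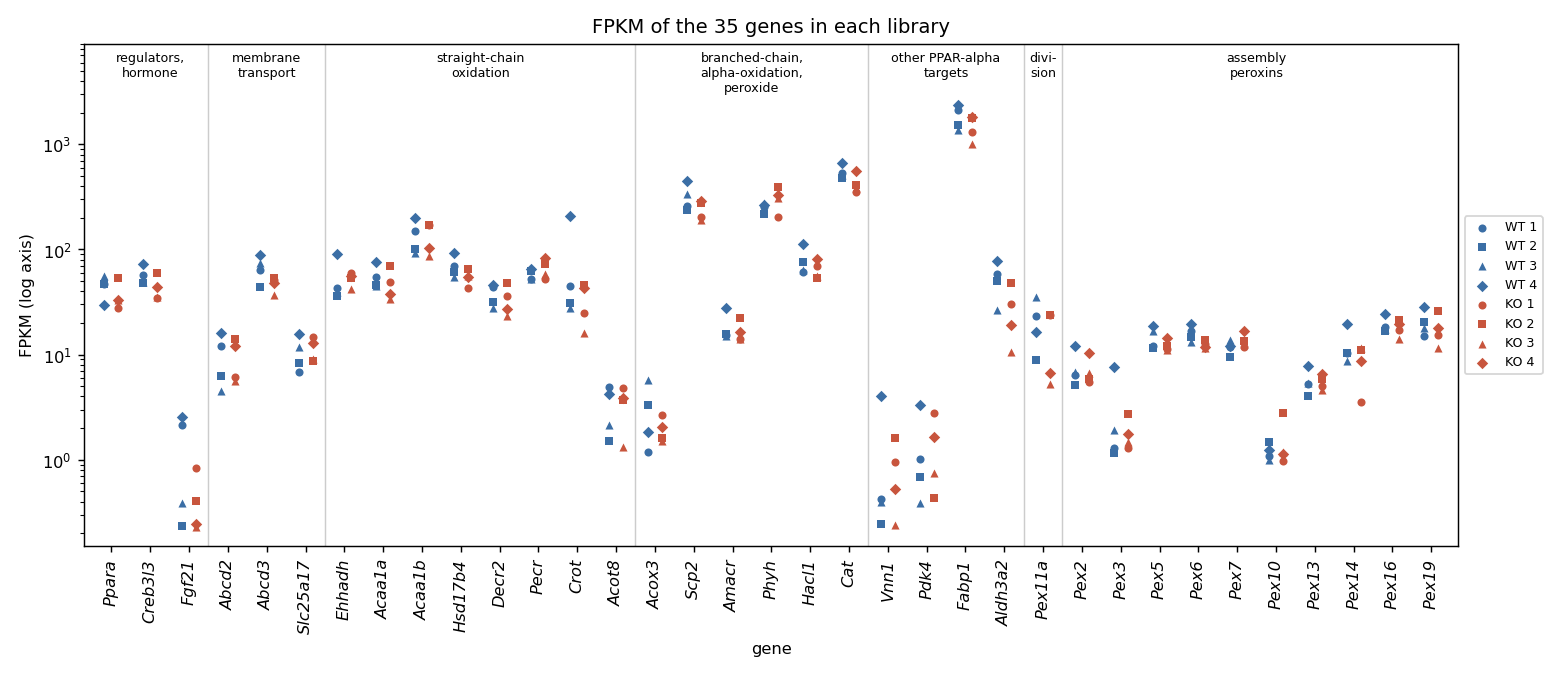
FPKM on a log axis (y) of the 35 genes (x, by role) in the 4 WT libraries (blue) and the 4 KO libraries (red), with 1 marker shape for each replicate number. Fabp1 sits highest at 997 to 2384 FPKM, Fgf21 lowest, and the WT and KO points of each tested gene overlap.

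The receptor and its partner were well expressed in both groups. Ppara (ENSMUSG00000022383, chromosome 15, 85734983 to 85802819) stood at 47.5, 47.5, 56.3 and 29.6 FPKM across WT 1 to WT 4 and 27.8, 54.1, 33.2 and 32.9 FPKM across KO 1 to KO 4. Its lowest WT value was thus in WT 4 and its highest KO value in KO 2, and the groups overlapped (means 45.2 ± 11.2 and 36.98 ± 11.7 FPKM, SD, n = 4 each). The log2 change of Ppara was -0.29 ± 0.26 SE (limma adjusted p = 0.83). It was -0.48 without WT 4 and -0.485 without KO 2, and -0.26 to -0.17 with any other single library left out. Without WT 4 and KO 2 together, an alternative added after seeing the data, it was -0.67 (limma adjusted p = 0.216). Creb3l3, which encodes a membrane-tethered transcription factor of hepatocytes that acts with PPAR-alpha, was at 57.1, 47.9, 48.96 and 73.3 FPKM in WT and 34.8, 60.4, 35.3 and 43.6 FPKM in KO. In contrast to Ppara, its highest WT value was in WT 4 (log2 change -0.39, limma adjusted p = 0.651). Fgf21, the fasting hormone that both factors induce, was the single member under the minimum for testing. Its values were 2.13, 0.235, 0.388 and 2.56 FPKM across WT 1 to WT 4 and 0.842, 0.409, 0.22997 and 0.243 FPKM across KO 1 to KO 4, so that WT 1 and WT 4 stood above the other 6 libraries. An exact two-sided permutation test of its mean log2(FPKM + 1) gave p = 0.314 (difference -0.57, n = 4 each), where 0.0286 is the smallest p that 70 labelled splits allow.

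Fatty acids enter the organelle through ATP-binding cassette transporters. Abcd2, which carries very long chain acyl-CoA, was at 12.1, 6.28, 4.52 and 16.1 FPKM in WT and 6.12, 14.1, 5.64 and 12.1 FPKM in KO. The means of Abcd2 were close (9.74 ± 5.31 and 9.49 ± 4.25 FPKM, SD, n = 4 each), while its interval of -0.89 to 0.92 on the log2 scale does not show that the groups were alike. Abcd3, the more abundant transporter, which also carries branched and bile acid precursors, was at 63.5, 43.9, 73.98 and 88.9 FPKM in WT and 51.3, 54.04, 37.3 and 48.1 FPKM in KO. Of the 3 carriers Abcd3 had the largest change (-0.46 ± 0.24 SE, limma adjusted p = 0.588), and the groups overlapped through WT 2. Slc25a17, a carrier of cofactors across the peroxisomal membrane, ranged from 6.801 to 15.9 FPKM in WT and from 8.79 to 14.7 FPKM in KO (log2 change 0.11).

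Enzymes of the oxidation cycle gave changes of both signs. Ehhadh, the bifunctional enzyme of the classical inducible pathway, was at 43.3, 36.1, 39.3 and 89.6 FPKM in WT and 59.4, 53.99, 42.4 and 55.96 FPKM in KO. Of the WT libraries, 3 lay near or below the lowest KO value of Ehhadh and WT 4 lay above all others, and the group means were 52.1 ± 25.2 and 52.9 ± 7.35 FPKM (± SD, 4 libraries each; log2 change 0.11, limma adjusted p = 0.957). Hsd17b4, the bifunctional enzyme that also serves branched chains and bile acid precursors, was at 69.4, 61.1, 55.01 and 93.1 FPKM in WT and 43.1, 64.6, 55.9 and 54.7 FPKM in KO (log2 change -0.33, limma adjusted p = 0.698). Again WT 4 was highest.

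The thiolases that close the cycle exist in mouse as a pair of neighbouring genes on chromosome 9, Acaa1b (119148023 to 119157093) and Acaa1a (119339676 to 119350299), 182.6 kb apart. Their transcripts are alike, with 30.5% of the 50-base words of Acaa1b and 12.9% of those of Acaa1a occurring in other genes, chiefly in each other, so reads could be split between them. Acaa1b, the more inducible copy, was at 151, 101, 92.8 and 198 FPKM in WT and 171, 172, 86.3 and 104 FPKM in KO. Acaa1a was at 54.6, 46.1, 44.5 and 75.4 FPKM in WT and 49.4, 69.7, 33.8 and 37.8 FPKM in KO. In both genes WT 4 was the highest and KO 3 the lowest of the 8 libraries, and the changes were -0.02 and -0.23 on the log2 scale (limma adjusted p = 0.995 and 0.877).

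Crot showed the widest spread of the cycle's genes. Crot (ENSMUSG00000003623, chromosome 5, 8966033 to 8997324) encodes the octanoyltransferase that hands shortened chains on to mitochondria. Its values were 45.1, 30.8, 27.7 and 209 FPKM across WT 1 to WT 4 and 24.9, 46.1, 16.1 and 42.6 FPKM across KO 1 to KO 4. A single library, WT 4, stood far above the other 7, which all lay between 16.1 and 46.1 FPKM. The change of -0.82 (95% interval -2.18 to 0.54, limma adjusted p = 0.773) became -0.17 without WT 4 and -0.54 without KO 3. Leaving out any other single library gave -1.13 (without WT 3) to -0.74 (without KO 1). Acot8, the thioesterase that frees acids from CoA, ran from 1.52 to 4.88 FPKM in WT and from 1.32 to 4.78 FPKM in KO (log2 change 0.09). The reductase genes Decr2 and Pecr were steadier than Crot and Acot8. Decr2 ran from 27.6 to 46.3 FPKM in WT and from 23.5 to 48.2 FPKM in KO (log2 change -0.16). Pecr, with the narrowest range of the inducible genes, was at 52.1, 62.2, 52.3 and 65.1 FPKM in WT and 52.1, 73.1, 58.2 and 82.8 FPKM in KO (log2 change 0.18, 95% interval -0.25 to 0.61).

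The genes of branched-chain oxidation, alpha-oxidation and peroxide removal ranged from the abundant Cat, Scp2 and Phyh to the low Acox3. Cat, which removes the peroxide made by the oxidases, was at 539, 474, 506 and 663 FPKM in WT and 352, 412, 387 and 553 FPKM in KO. Apart from KO 4, each KO value of Cat lay below each WT value (log2 change -0.37 ± 0.20 SE, 95% interval -0.80 to 0.07, limma adjusted p = 0.613). Scp2, which encodes a sterol carrier and the thiolase for branched chains, had means of 320.2 ± 95.9 FPKM (WT) and 241 ± 50.4 FPKM (KO; ± SD, 4 libraries each; log2 change -0.39). Its level is uncertain to the extent that 29.7% of its 50-base words also occur in other genes, chiefly the pseudogene Scp2-ps2. Phyh, the hydroxylase that starts alpha-oxidation of phytanic acid, had the largest positive change of all members, at 253, 219, 278 and 262 FPKM in WT and 205, 397, 308 and 329.7 FPKM in KO (0.26, 95% interval -0.23 to 0.74). Here KO 1 lay below the WT libraries and the other KO libraries above them. Hacl1, the lyase of the next step, ran from 61.6 to 112 FPKM in WT and from 53.7 to 80.7 FPKM in KO (log2 change -0.24). It shares 28.4% of its 50-base words with other genes, mainly the overlapping Gm49387. Amacr, the racemase that prepares branched chains for oxidation, was at 15.3, 15.7, 14.97 and 27.9 FPKM in WT and 13.98, 22.2, 14.1 and 16.4 FPKM in KO. In Amacr 6 of the 8 libraries lay between 13.98 and 16.4 FPKM, with WT 4 and KO 2 above. Acox3, an oxidase for branched chains, was low, at 1.19 to 5.74 FPKM in WT and 1.52 to 2.67 FPKM in KO, and had its lowest values in WT 1, KO 3 and KO 2.

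PPAR-alpha targets that act outside peroxisomal oxidation held the member nearest to a change. Aldh3a2 (ENSMUSG00000010025, chromosome 11, 61223417 to 61267464), the fatty aldehyde dehydrogenase, was at 58.5, 49.6, 26.7 and 78.5 FPKM across WT 1 to WT 4 and 30.1, 48.01, 10.6 and 19.2 FPKM across KO 1 to KO 4. WT 1, WT 2 and WT 4 lay above all KO libraries, and WT 3 lay among them. The means were 53.3 ± 21.5 and 26.98 ± 16.1 FPKM (± SD, 4 libraries each), the log2 change was -1.05 ± 0.45 (SE; 95% interval -2.07 to -0.04), and the limma adjusted p over all genes was 0.488. With 1 library left out each time, the change of Aldh3a2 ranged from -1.39 to -0.69, the latter without KO 3. The lowest limma adjusted p among these fits was 0.2645. Fabp1, the carrier that delivers fatty acids within the hepatocyte, was at 2126, 1514, 1359 and 2384 FPKM in WT and 1322, 1786, 997 and 1815 FPKM in KO. This gene, whose upstream letters are given above, was the most abundant of the 35 and its groups overlapped widely (log2 change -0.32, limma adjusted p = 0.808). Vnn1, a pantetheinase gene and a sensitive PPAR-alpha target, was at 0.423, 0.243, 0.397 and 4.05 FPKM in WT and 0.9599, 1.62, 0.238 and 0.526 FPKM in KO. Pdk4, the kinase that shuts pyruvate out of oxidation in fasting, was at 1.02, 0.693, 0.385 and 3.35 FPKM in WT and 2.802, 0.429, 0.754 and 1.65 FPKM in KO. Both genes were near the minimum for testing, both had their highest value in WT 4, and their changes were -0.09 and 0.07.

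Pex11a, the inducible peroxin that drives peroxisome division, had its highest value outside WT 4. It was at 23.5, 8.87, 35.3 and 16.5 FPKM across WT 1 to WT 4 and 24.04, 23.8, 5.23 and 6.69 FPKM across KO 1 to KO 4. Its highest library was WT 3, and KO 3 and KO 4 were lowest (log2 change -0.59, 95% interval -1.82 to 0.63, limma adjusted p = 0.838).

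**Figure D2:**
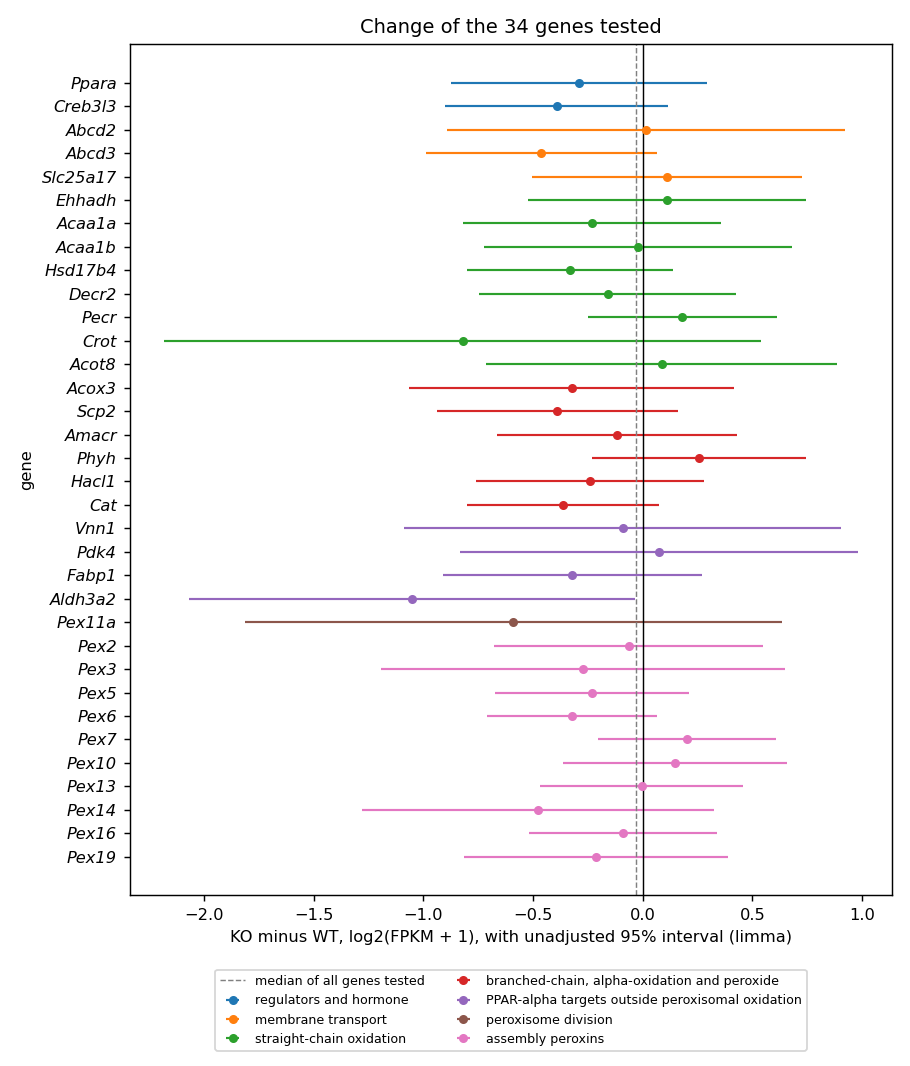
Difference KO minus WT on the log2(FPKM + 1) scale (x) for the 34 genes tested (y), with points for the limma estimate, bars for its unadjusted 95% interval and colours for the role. The interval of Aldh3a2 alone leaves out 0, and the dashed line marks the median of all genes tested, -0.03.

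Assembly peroxins were lower in level than most of the oxidation genes, and their changes lay between -0.48 and 0.20. Their mean FPKM over the 8 libraries had a median of 11.6 (1.36 to 19.1), against 53.9 (3.32 to 134) for the inducible oxidation genes. Among the peroxins of membrane assembly, Pex19, the chaperone of newly made membrane proteins, was at 14.98, 20.6, 18.03 and 28.3 FPKM in WT and 15.4, 25.9, 11.7 and 18.1 FPKM in KO (log2 change -0.21). Pex16, a membrane receptor, ran from 16.8 to 24.2 FPKM in WT and from 14.1 to 21.4 FPKM in KO (log2 change -0.09). Pex3, the docking site of Pex19, stood apart in 1 library, at 1.31, 1.16, 1.94 and 7.58 FPKM across WT 1 to WT 4 and 1.298, 2.74, 1.49 and 1.76 FPKM across KO 1 to KO 4. The change of Pex3 was -0.27 with WT 4 and 0.18 without it (limma adjusted p = 0.916 and 0.888).

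The import machinery held receptors, docking proteins and the parts that recycle the receptors, and none passed the test. Pex5, receptor for the carboxy-terminal targeting signal that most matrix enzymes carry, was at 12.2, 11.5, 16.6 and 18.5 FPKM in WT and 11.2, 11.99, 11.1 and 14.5 FPKM in KO (log2 change -0.23). Pex7, receptor for the amino-terminal signal used by the thiolases and Phyh, was at 11.8, 9.42, 13.7 and 12.1 FPKM in WT and 11.9, 13.5, 12.6 and 16.8 FPKM in KO (log2 change 0.20, limma adjusted p = 0.832). Unlike most members, Pex7 had its highest value in KO 4. The docking peroxins were Pex13, at 4.01 to 7.76 FPKM in WT and 4.63 to 6.53 FPKM in KO (log2 change -0.00383), and Pex14, at 10.3, 10.3, 8.64 and 19.4 FPKM in WT and 3.54, 11.04, 11.7 and 8.63 FPKM in KO. In Pex14 the highest library was WT 4 and the lowest KO 1 (log2 change -0.48, limma adjusted p = 0.778). The change of Pex14 was -0.15 without KO 1 and -0.25 without WT 4, and 28.3% of its exonic bases overlap Gm17029 on the other strand. The ubiquitin ligases that recycle the receptors were Pex2, at 5.11 to 12.02 FPKM in WT and 5.47 to 10.4 FPKM in KO (log2 change -0.06), and Pex10, at 1.002 to 1.47 FPKM in WT and 0.968 to 2.76 FPKM in KO (log2 change 0.15). Pex6, an ATPase that pulls the receptors back out of the membrane, came closest to separating the groups, at 16.8, 14.7, 13.1 and 19.7 FPKM in WT and 12.7, 13.8, 11.7 and 11.9 FPKM in KO. The groups of Pex6 overlapped through WT 3 and KO 2 alone (log2 change -0.32 ± 0.17 SE, 95% interval -0.71 to 0.06, limma adjusted p = 0.613).

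Set side by side, inducible oxidation genes and assembly peroxins differed in level, and the distance between the lists had close means in WT and KO. Of the inducible genes 6 of 10 had a negative change (median -0.09), and of the peroxins 8 of 10 (median -0.15), with 0 of 10 past the threshold in each list. Without WT 4 both medians turned positive, to 0.07 for the inducible genes and 0.08 for the peroxins. The mean log2(FPKM + 1) of the inducible genes was 5.37, 4.91, 4.90 and 5.93 in WT 1 to WT 4 and 5.12, 5.47, 4.66 and 5.19 in KO 1 to KO 4. That of the peroxins was 3.11, 3.04, 3.18 and 3.73 in WT and 2.89, 3.36, 3.01 and 3.27 in KO. In both lists WT 4 was highest, and KO 2 was highest within KO. The inducible mean minus the peroxin mean was 2.25, 1.87, 1.72 and 2.19 in WT 1 to WT 4 and 2.23, 2.11, 1.65 and 1.92 in KO 1 to KO 4. These differences averaged 2.01 ± 0.26 in WT and 1.98 ± 0.25 in KO (± SD, 4 libraries each), so the gap between the groups, -0.03, was smaller than the spread within each. Being a score over chosen genes, it carries no p. With 4 libraries in each group, it does not show that the distance was alike in WT and KO. Left out in turn, single libraries moved the gap between -0.13 and 0.08, and without WT 4 it was 0.03.

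**Figure D3:**
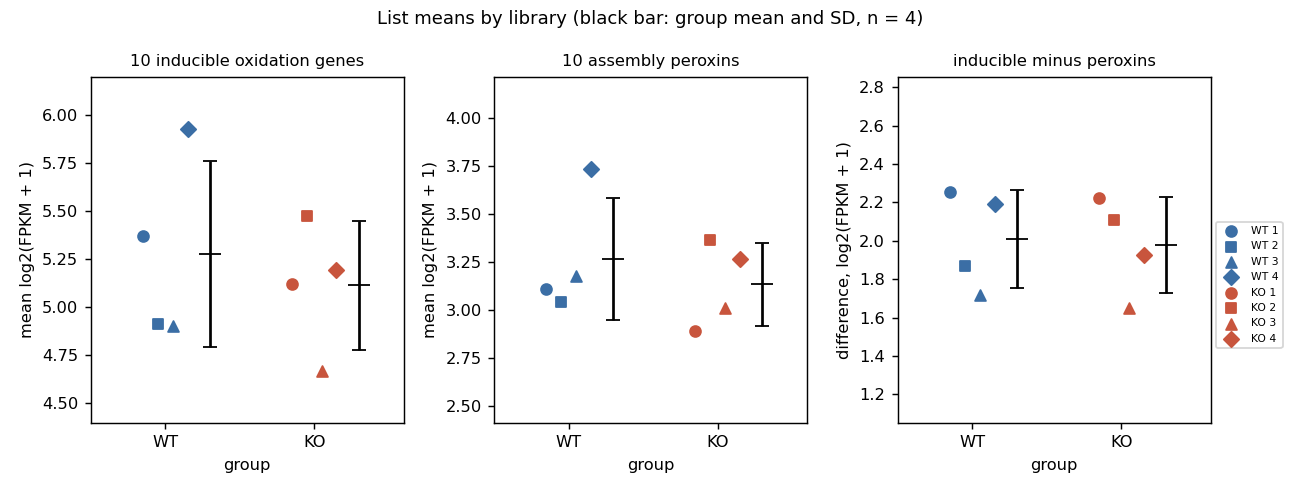
Mean log2(FPKM + 1) of the 10 inducible oxidation genes (left), of the 10 assembly peroxins (middle) and their difference (right) in each library, with black bars for the group mean and SD (n = 4). WT 4 is the highest point in the left and middle panels, and the differences of both groups spread between 1.65 and 2.25.

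Single libraries stood out across both lists. WT 4 held the highest of the 8 values in 26 of the 35 members (74.3%), including 7 of 10 inducible genes and 8 of 10 peroxins, against 27.5% of all genes tested. The ratio of WT 4 to the median of the other WT libraries had a median of 1.80 over the inducible genes, 1.5 over the peroxins and 1.19 over all genes tested. It was 10.2 for Vnn1, 6.80 for Crot, 6.60 for Fgf21, 5.80 for Pex3 and 4.84 for Pdk4, but 0.62 for Ppara, 0.70 for Pex11a and 0.55 for Acox3. How often WT 4 came out highest depended on scaling. Of the 34 tested members it was highest in 25 without scaling, in 21 with libraries scaled to equal sums (18.4% of all genes) and in 15 with quantile normalization or median ratio scaling, where 17.8% and 17.0% of all genes had their highest value in WT 4. Under each of these scalings WT 4 kept the highest mean of the inducible list and of the peroxin list, and KO 3 the lowest mean of the inducible list.

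At the other end, KO 3 held the lowest value in 16 of the 35 members (45.7%), against 11.5% of all genes tested. Among these were 6 of the 10 inducible genes and 4 of the 10 peroxins. KO 2 was the highest of the KO libraries in 18 of the 35 members (51.4%), against 19.9% of all genes tested. The spread within groups was near that of all genes tested, which had a lower median level of 4.34 FPKM. The inducible genes had 53.9 FPKM and the peroxins 11.6 FPKM, and no genes of matched level were compared. The coefficient of variation had a median of 32.1% in WT and 32.9% in KO over the inducible genes, 25.6% and 24.7% over the peroxins, and 28.98% and 27.1% over all genes tested.

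**Figure D4:**
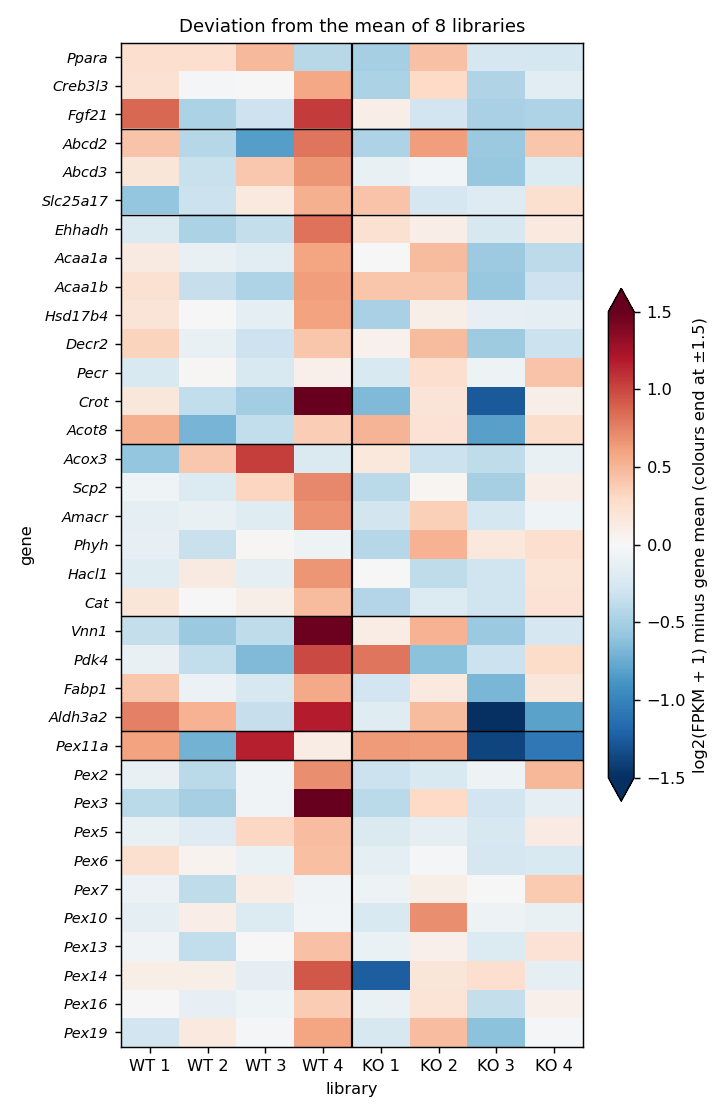
Deviation of log2(FPKM + 1) of each of the 35 genes (rows, by role) from its mean over the 8 libraries (columns), in red above and in blue below the mean, with colours ending at ±1.5. The WT 4 column is red in most rows, with Ppara and Acox3 among the exceptions, and the KO 3 column is blue in all rows but Phyh and Pex14.

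Genes that follow feeding and the clock also set WT 4 apart. The mean log2(FPKM + 1) of 8 genes raised by feeding, such as Elovl6 and Acly, was 3.86 in WT 4 and 4.40 in KO 2, and 5.64 to 6.37 in the other 6 libraries. That of 8 genes raised by fasting was 5.90 in WT 4, 5.05 in KO 2 and 4.92 to 5.79 in the others. Over 13 clock genes it was 1.70 in WT 4 and 2.41 to 2.91 elsewhere, a mean that pools genes moving in opposite directions. The clock output gene Dbp was at 0.569 FPKM in WT 4 against 20.8 to 58.9 FPKM elsewhere. Arntl, Clock and Npas2 instead had their highest values in WT 4, at 2.46, 4.12 and 0.146 FPKM. Elsewhere they reached at most 0.472, 2.46 and 0.0123 FPKM. Of these, Arntl and Npas2 were under the minimum for testing. The part of feeding state and time of day in the member values was not tested.

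Other genes of the pathway were read from 4 further lists, in which no gene passed the threshold in either direction (limma). At an unadjusted p under 0.05 they held 7 of 28, 5 of 30, 0 of 8 and 1 of 13 genes tested, in the order given here, beside 9.81% of all genes. Of 28 further PPAR-alpha targets 24 had a negative change (median -0.43, against -0.22 for the members), and 5 had every KO library below every WT library, beside 3.18% of all genes tested. Acsl1, which activates long-chain fatty acids, was at 132, 135, 155 and 223 FPKM in WT and 62.9, 86.4, 50.9 and 72.5 FPKM in KO (log2 change -1.22 ± 0.23 SE, limma adjusted p = 0.0507). It passed with libraries scaled to equal sums, with quantile normalization, with median ratio scaling and without KO 2 (limma adjusted p = 0.0294, 0.0167, 0.0291 and 0.0393), and missed in the other alternatives (up to 0.141). Acot1, a cytosolic thioesterase, was at 3.99, 4.48, 5.32 and 17.3 FPKM in WT and 1.97, 3.81, 0.504 and 0.532 FPKM in KO (limma adjusted p = 0.231). Cyp4a32, an omega-hydroxylase with close copies, was at 8.82, 9.57, 8.97 and 52.95 FPKM in WT and 3.35, 8.57, 2.77 and 1.27 FPKM in KO (limma adjusted p = 0.302). In both genes WT 4 stood far above the other WT libraries, and KO 2 lay just below the lowest WT library. An alternative added after seeing the data, without WT 4 and KO 2, put Cyp4a32 past the threshold (limma adjusted p = 0.0488).

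Among 30 further peroxisomal proteins 20 had a negative change (median -0.19), and 4 had all KO libraries below all WT libraries. Ech1, an isomerase for unsaturated chains in peroxisomes and mitochondria, was at 48.3, 47.2, 49.1 and 60.9 FPKM in WT and 31.2, 40.4, 20.4 and 22.3 FPKM in KO (limma adjusted p = 0.164). Lonp2, the peroxisomal protease, had a change of -0.81 (limma adjusted p = 0.364). Of 8 other peroxins and division factors 3 had a negative change (median 0.07), with Pex26, the membrane anchor of Pex6, at 2.92 to 5.19 FPKM in WT and 1.82 to 4.06 FPKM in KO (limma adjusted p = 0.667) and Mff at a change of 0.24. Of 13 partners and cofactors of PPAR-alpha 6 had a negative change (median 0.01). Ppargc1b, a coactivator gene, had the smallest p there, at 2.62, 1.87, 2.25 and 0.761 FPKM in WT and 2.45, 9.64, 6.77 and 3.41 FPKM in KO (limma adjusted p = 0.324), followed by Med1 (0.735) and Ncor1 (0.748).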

How the data were processed

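Liver RNA of 4 WT and 4 KO samples was analysed. The authors deposited FPKM values, made with tools not given in the sources used here. TopHat, edgeR and mm10 stand in the submitters' processing notes without versions or roles, and the use of strand is not given, so genes on opposite strands that overlap (11 of the 35 members have such or same-strand exon overlap) cannot be told apart. Of the gene IDs 99.4% matched GENCODE M21 (GRCm38, the same build as mm10). Depth was estimated from single-transcript genes of at least 400 bases; since only 55.6 to 60.4% of the low values came within 0.1 of a whole read (chance gives 20%), no reads were rebuilt. Depth limits the members near 1 FPKM most.

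Genes with a mean of at least 1 FPKM were tested on log2(FPKM + 1), which understates changes of low genes, with limma 3.58.1 in R 4.3.3 (intensity trend, two-sided, Benjamini-Hochberg over 11266 genes, threshold 0.05). In simulated data for this comparison (11266 genes) the fit recovered 42 of 100 genes changed by 1 and 84 of 100 changed by 2 on the log2 scale, with 10 false calls among 136. Changes were placed only in genes with a mean log2(FPKM + 1) over 2. Noise was drawn for each gene apart, without shifts shared by the genes of a library. The recovery rates therefore do not cover low members or such shifts. Figures used Python 3.11.15 and matplotlib 3.10.9. All members are named. From each other pathway list the rule took the genes past the threshold, or else the 3 with the smallest p. Some genes that this rule took are not reported here. Members and lists were chosen with earlier results of these data known. The alternatives were other pseudocounts (0.1 and 5 FPKM), filters and scalings, no trend, a replicate block and leaving libraries out.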

Additional observations from a re-analysis of the deposited data

Results flagged for a closer look

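Each group of 4 libraries was searched for a library lying far from the other 3 on the log2(FPKM + 1) scale by Dixon's 95% criterion. Of 70 groups (35 genes in WT and KO) 3 met this, where chance gives about 1 in 20. Amacr, the racemase of branched-chain oxidation, reached 27.9 FPKM in WT 4, beside 14.97 to 15.7 FPKM in the other WT libraries. Vnn1, the pantetheinase gene, was at 4.05 FPKM in WT 4 against 0.243 to 0.423 FPKM. Pex10, a ubiquitin ligase of receptor recycling, was at 2.76 FPKM in KO 2 against 0.968 to 1.196 FPKM in the other KO libraries.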

How the results depend on the processing

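Under 18 alternatives 0 of the members passed the threshold, and 561 of 603 member changes kept their sign. The lowest limma adjusted p was 0.216, for Ppara without WT 4 and KO 2 together. Equal sums moved the median of all genes to -0.12 and that of the members to -0.33, with 26 of 34 negative. The 86 genes called over the whole table became 54 with a pseudocount of 5 FPKM, 27 with a minimum of 5 FPKM, 24 with the replicate block and 35 to 136 on leaving out 1 library each time (35 without KO 3, 136 without KO 2). The replicate numbers were not taken as pairs in the main fit. Same-numbered libraries had correlations of deviations of -0.0668 to 0.25. Of the 8 libraries 4 correlated best with their own number, among them WT 4 and KO 4. Such correlations, with 4 libraries a group, cannot show whether the samples were paired. The block called 0 members. Of the other pathway lists 1 gene was called lower with no filter (Pparg), equal sums, quantile normalization, median ratio scaling (Acsl1) and without WT 4 and KO 2 together (Cyp4a32), and 0 to 1 when 1 library was left out.

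Signs turned for Abcd2 with a pseudocount of 5 FPKM (-0.00090) and equal sums (-0.0840), Vnn1 with 0.1 FPKM (0.0152), Acaa1b with median ratio scaling (0.0135), and Pex13 with quantile normalization (0.0172) and median ratio scaling (0.0283). Without WT 4 and KO 2 together they turned for Acaa1b (0.0392), Hacl1 (0.0255), Pex2 (0.22), Pex3 (0.0368), Pex10 (-0.0520) and Pex13 (0.11). With 1 library left out the ranges were -0.26 to 0.28 for Abcd2, -0.0639 to 0.31 for Slc25a17, -0.0263 to 0.40 for Ehhadh, -0.18 to 0.18 for Acaa1b, -0.13 to 0.37 for Acot8, -0.26 to 0.0887 for Amacr, -0.29 to 0.0803 for Vnn1 (under the minimum and not tested without WT 4 and without KO 2), -0.18 to 0.42 for Pdk4, -0.24 to 0.16 for Pex2, -0.48 to 0.18 for Pex3, -0.0635 to 0.25 for Pex10, -0.13 to 0.14 for Pex13, -0.18 to 0.0194 for Pex16 and -0.0655 to 0.45 for Mff. The cause was not tested.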
